A study of Mus musculus with 2 samples.

Results

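The Hox cluster genes are the protein-coding genes of the HoxA, HoxB, HoxC and HoxD clusters, taken from the GENCODE M21 annotation of the mouse build GRCm38 as every symbol of Hoxa, Hoxb, Hoxc or Hoxd followed by a number. The rule found 39 of 21755 protein-coding genes, with 11 in HoxA, 10 in HoxB, 9 in HoxC and 9 in HoxD. The rule itself uses no measured value.

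The data come from in situ Hi-C, which joins and sequences pieces of DNA that lie close together in fixed nuclei. Mature olfactory sensory neurons, isolated by FACS, were taken from adult mice of unspecified strain and mixed sex; the source tissue was olfactory epithelium. All mice carried OMP-Cre and a conditional Ldb1 knockout (OMP-Cre; Ldb1-KO), so the deletion depended on Cre driven by Omp, which marks mature neurons of the nose, and both libraries shared it. The 2 biological replicates, each of 1000000 cells fixed in 1% formaldehyde and digested with DpnII, form 1 group. Control libraries were not analysed here. The submitters pooled the contacts of both replicates and called boundaries, positions that few contacts cross, in bins of 5 kb. The boundary list holds 7610 bins, each with a strength (the authors' score) and a class. Values therefore have no replicate error, the depth behind them is unknown, and no test between conditions was possible. In such a pooled cell population, the share of cells insulated at a position and the degree of insulation in each cell cannot be told apart. A boundary list cannot show the loss of Ldb1, the identity of the sorted cells or the expression of any Hox gene.

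Hox genes encode homeodomain transcription factors that give cells their position along the head-to-tail axis. In each mammalian cluster the genes lie in the order of the body regions they pattern, from group 1 at the 3′ end (hindbrain) to group 13 at the 5′ end (tail, digits and genitals), and genes of the same number in different clusters are paralogues. Active Hox genes and those held silent by Polycomb proteins occupy separate contact neighbourhoods, and in developing limbs the HoxD genes lie between a regulatory landscape on either side. Olfactory neurons arise from head ectoderm in front of the body regions in which Hox genes act.

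One boundary lay inside a Hox cluster, in HoxD at Hoxd10, and none lay inside HoxA, HoxB or HoxC. That boundary (chr2:74690001-74695000) had a strength of 1.08 and belonged to the strong class, and 19.2% of all boundaries were at least as strong. It was 21.7 kb from the Hoxd13 edge of the cluster and 70.1 kb from the Hoxd1 edge. The bin overlapped an exon of Hoxd10, a gene of limb and lumbar spinal cord patterning, and the noncoding gene Gm28309. It held the GENCODE start site of Hoxd10, whereas the RefSeq gene record, which takes in a longer predicted transcript, begins 5.73 kb outside it. The next start sites were those of Hoxd9 at 2.73 kb and Hoxd8 at 9.62 kb on its 3′ side. On its 5′ side Hoxd11, a gene of forearm and kidney patterning, started 10.4 kb away, with a further annotated transcript start at 7.68 kb. Distances are counted from the start site to the nearest edge of the bin. The shortest interval in the list was 50 kb, and a listed boundary lay 19.1 kb past the 5′ edge of HoxA. A boundary among Hoxa10, Hoxa11 and Hoxa13 could therefore hardly have been listed. No difference between HoxA and HoxD can be read from its absence there.

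Sequence is shown for the 3 Hox genes whose gene-level GENCODE start sites lie in that boundary or within 10 kb of it. The 250 bases before the start of a curated RefSeq transcript of each (GRCm38.p6, plus strand) are given with every CG dinucleotide in capitals, since runs of CG mark the promoters that Polycomb proteins often bind. The windows are chr2:74691641-74691890 for Hoxd10, chr2:74697513-74697762 for Hoxd9 and chr2:74704365-74704614 for Hoxd8.
Hoxd10: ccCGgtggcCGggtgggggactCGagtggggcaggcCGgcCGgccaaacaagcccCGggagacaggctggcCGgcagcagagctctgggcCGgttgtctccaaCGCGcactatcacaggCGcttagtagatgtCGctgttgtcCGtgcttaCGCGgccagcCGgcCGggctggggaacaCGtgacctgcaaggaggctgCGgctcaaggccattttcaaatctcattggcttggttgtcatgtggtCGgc
Hoxd9: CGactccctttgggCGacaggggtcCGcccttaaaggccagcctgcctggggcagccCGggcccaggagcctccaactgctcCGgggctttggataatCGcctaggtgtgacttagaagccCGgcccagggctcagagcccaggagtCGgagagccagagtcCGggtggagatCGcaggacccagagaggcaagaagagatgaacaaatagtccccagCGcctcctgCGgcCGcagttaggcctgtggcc
Hoxd8: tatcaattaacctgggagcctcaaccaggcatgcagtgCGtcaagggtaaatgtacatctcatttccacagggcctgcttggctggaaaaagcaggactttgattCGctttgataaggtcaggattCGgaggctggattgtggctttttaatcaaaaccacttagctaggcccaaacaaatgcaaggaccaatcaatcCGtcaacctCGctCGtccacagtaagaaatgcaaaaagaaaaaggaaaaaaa
The Hoxd10 window lay whole inside the boundary bin and held 20 CG dinucleotides. The Hoxd9 window held 13 and the Hoxd8 window held 6. Full promoter windows, which add 50 bases after the start, were at hand for 22 of the 39 Hox genes. Of their 24 windows, 23 are set on a RefSeq messenger RNA start and 18 on the start of the RefSeq gene record, so some, Hoxd10 among them, use an inner start. Hoxd11, not printed, had a window on a curated start 7.68 kb from the bin, nearer than Hoxd8. That full window held 25 CG dinucleotides, and another Hoxd11 window held 4. The full windows of Hoxd10, Hoxd9 and Hoxd8 held 22, 20 and 6, so no steady fall away from the boundary can be read from the printed windows. Over the 22 genes, with a gene's windows averaged, the median CG count was 14.8 (range 4 to 45), against 7.5 over 26794 genes. The median G+C content was 56.9% against 53.0%. Those 26794 genes are a larger set than the 21755 protein-coding genes used elsewhere, so the background here is a different one. Most of the 22 were HoxA and HoxD genes. HoxB was represented only by Hoxb1, Hoxb4 and Hoxb8 and HoxC only by Hoxc4, so these medians do not describe all Hox promoters. The highest count, 45, belonged to Hoxa13, 19.1 kb from a boundary, so high counts were not limited to the genes at the HoxD boundary.

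Few Hox genes started at a boundary. Within 10 kb of one lay 3 of the 39 start sites (7.69%), against 14.3% of all 21755 protein-coding genes, and all 3 (Hoxd8, Hoxd9 and Hoxd10) shared the boundary at Hoxd10. They are therefore 1 event and not 3. Hoxd8, at 9.62 kb, was the last gene inside the window, and Hoxd11, at 10.4 kb, was the first outside it. In the bin itself lay 1 of 39 (2.56%), against 3.86% of all genes. For strong boundaries alone the count was again 3 of 39, against 9.3% of all genes.

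Wider windows brought in the 5′ genes of HoxA and most of HoxD but no gene of HoxB or HoxC. Within 25 kb were 9 Hox genes (23.1%, against 26.5% of all genes), with Hoxa13 and 8 of the 9 HoxD genes. Hoxd3 and Hoxd4, genes of neck vertebrae whose annotated starts nearly coincide, stood at 16.9 kb, with Hoxd12 a little nearer. Within 50 kb were 12 (30.8%, against 45.3% of all genes), as Hoxa9, Hoxa10 and Hoxa11 joined. By RefSeq gene starts, Hoxd4 stood at 27.0 kb, outside the 25 kb window, and Hoxa9 at 52.6 kb, outside the 50 kb window. The median distance of a Hox start site to a boundary was 115 kb (range 0 to 356 kb), and that of all protein-coding genes was 56.6 kb (interquartile range 23.3 to 105 kb). The 39 genes had 6 different nearest boundaries among them, so these distances are set by few boundaries and genes of 1 cluster are not independent.

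**Figure D1:**
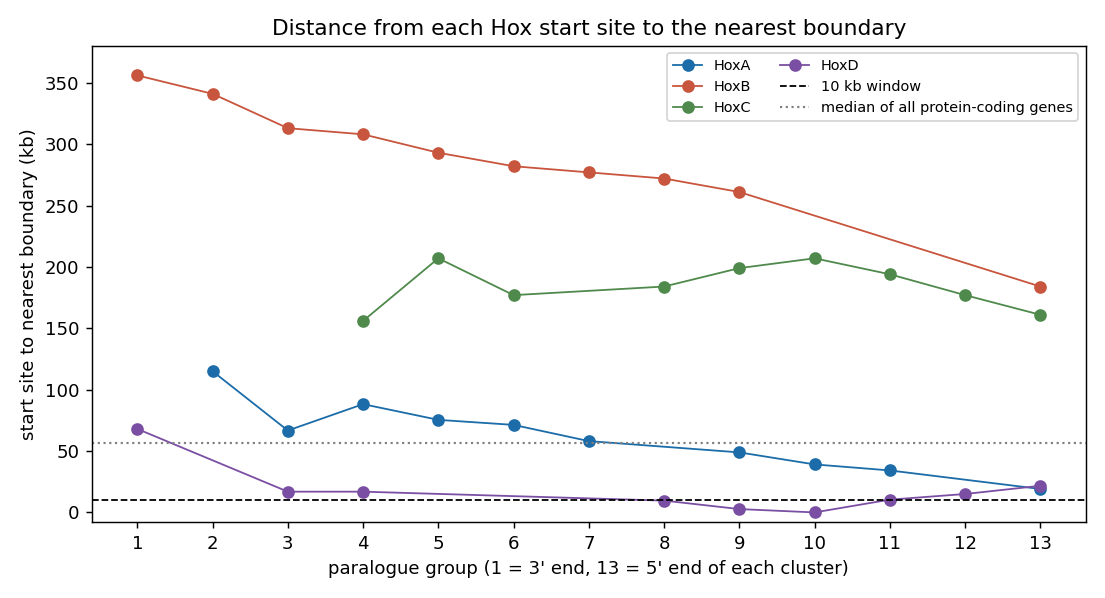
Distance from each Hox start site to its nearest boundary (kb) by paralogue group, with a line for each cluster, the 10 kb window (dashed) and the median of all protein-coding genes (dotted, 56.6 kb); 1 HoxA gene is not shown. Every HoxB and HoxC gene lies above the dotted line, every HoxD gene except Hoxd1 lies below it, and in HoxA only groups 9 to 13 do.

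Paralogues of 1 group stood at very different distances. In group 13, Hoxa13 and Hoxd13, which pattern the digits, started 19.1 and 21.7 kb from a boundary. Hoxc13, a gene of hair and nails, was 161 kb away, and Hoxb13, a gene of the prostate, 184 kb. In group 10 the distance was 0 for Hoxd10, 39.1 kb for Hoxa10, which acts in the uterus and lumbar region, and 207 kb for Hoxc10. In group 2 it was 115 kb for Hoxa2 and 341 kb for Hoxb2. Hoxd1 was 68.0 kb and Hoxb1, a gene of hindbrain patterning, 356 kb away. Hoxb1 was the farthest Hox gene of the list. Grouped along the axis, the median was 112 kb for groups 1 to 4 (12 genes), 184 kb for groups 5 to 8 (11 genes) and 44.0 kb for groups 9 to 13 (16 genes). The ranges were 16.9 to 356 kb, 9.62 to 293 kb and 0 to 261 kb, so the 3 sets overlapped.

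**Figure D2:**
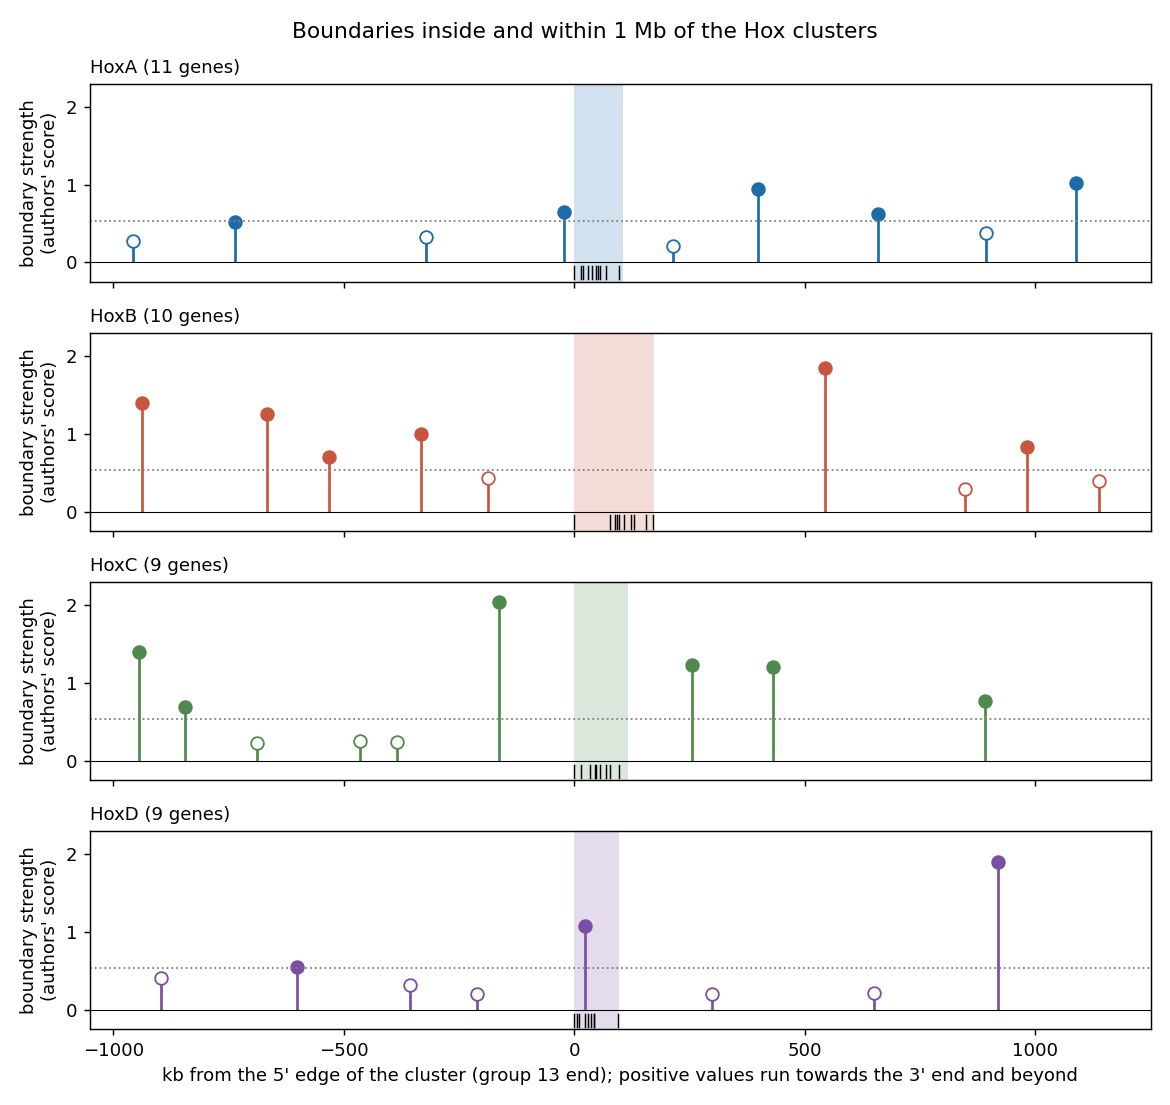
Boundaries inside and within 1 Mb of each cluster, by kb from the 5′ (group 13) edge on the x axis and by strength on the y axis, with filled circles for strong and open circles for weak boundaries. The shaded block is the cluster, short black lines are Hox start sites (1 HoxA gene not shown) and the dotted line is the median strength of all boundaries (0.538); only HoxD has a boundary in its block, and the HoxC block lies between high strengths.

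HoxD spans 96.8 kb (chr2:74668310-74765142, plus strand), and its inner boundary was stronger than the next boundary on either side. The next boundary on the 5′ side (chr2:74455001-74460000) was 208 kb away with a strength of 0.209, and 2.81% of all boundaries were at or under that value. On the 3′ side it was 200 kb away (chr2:74965001-74970000) with 0.203, and 1.02% were at or under it. The lowest strength in the list was 0.2, so these weak boundaries stand just above the floor of the list. Neither lay in a gene, and the nearest start sites were those of Lnpk, at 119 kb on the 5′ side, and Mtx2, at 139 kb on the 3′ side. The inner boundary divided 510 kb into an interval of 235 kb and one of 275 kb, measured from bin start to bin start. The 5′ interval held Hoxd11, Hoxd12 and Hoxd13 with Evx2, a homeobox gene next to Hoxd13, and Lnpk, a gene of the endoplasmic reticulum. The 3′ interval held Hoxd1, Hoxd3, Hoxd4, Hoxd8 and Hoxd9 with Mtx2, a mitochondrial import gene, and the gene model Gm28230. Hoxd10, in the bin, was counted in neither.

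Farther out, most boundaries around HoxD were weak. On the 5′ side the strengths were 0.322 at 353 kb, 0.557 at 598 kb and 0.403 at 893 kb, the last in an intron of Chn1. On the 3′ side they were 0.221 at 550 kb and 1.9 at 820 kb. Of the 8 boundaries in or within 1 Mb of HoxD, 3 were strong and the median strength was 0.363, below the median of 0.538 for the list. With weak boundaries left out, the interval on the 5′ side of Hoxd10 grew to 625 kb and that on the 3′ side to 895 kb.

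HoxA spans 105 kb (chr6:52155590-52260880, minus strand) and had a boundary just past its 5′ end. This boundary (chr6:52280001-52285000) was 19.1 kb beyond Hoxa13, with a strength of 0.642, in the strong class, and 57.9% of boundaries were at or under it. It overlapped no annotated gene. It lay between Hoxa13 and Evx1, the paralogue of Evx2, which started 28.5 kb past it and shared no interval with a Hox gene. In HoxD, by contrast, no boundary was listed between Hoxd13 and Evx2, which lay 30.4 kb from the boundary at Hoxd10. The Evx neighbour was thus separated from its group 13 gene by a listed boundary at HoxA and not at HoxD. However, Hoxd13 (21.7 kb) and Evx2 (30.4 kb) both started close to the bin at Hoxd10, and the shortest interval in the list was 50 kb. A boundary between them could therefore hardly have been listed, and no difference between the clusters can be read from its absence.

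The 3′ boundary of HoxA was weak. It lay 106 kb past the 3′ end of the cluster (chr6:52045001-52050000) with a strength of 0.212, and 3.67% of boundaries were at or under it. Skap2, which encodes an adaptor protein, started 32.5 kb from it on the far side. All 11 HoxA genes shared 1 interval of 235 kb with 5730596B20Rik and Gm28308, gene models inside the cluster. For Hoxa2, a selector of branchial arch identity, the nearest boundary was the 3′ one, at 115 kb, with the 5′ boundary at almost the same distance. The genes from Hoxa3 to Hoxa13 were nearest to the 5′ boundary, from Hoxa13 at 19.1 kb and Hoxa11 at 34.2 kb through Hoxa5, a gene of lung and respiratory development, at 75.4 kb to Hoxa4 at 88.2 kb. Hoxa3 is annotated from a far upstream start, so its 66.7 kb is not in order with its number.

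The intervals on either side of the HoxA interval were 300 kb long on the 5′ side and 185 kb on the 3′ side. On the 5′ side the strengths were 0.323 at 319 kb, in an intron of Hibadh, 0.524 at 734 kb, in an intron of Jazf1, and 0.27 at 954 kb. On the 3′ side they were 0.944 at 291 kb, in an exon of Skap2, then 0.619 at 551 kb, 0.374 at 786 kb and 1.02 at 981 kb. Of these 9 boundaries 5 were strong and the median was 0.524. None had a protein-coding start site within 10 kb.

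HoxB spans 174 kb (chr11:96194316-96368256, plus strand) and lay in the longest Hox interval. That interval measured 730 kb, and 6.06% of all 7590 intervals between neighbouring boundaries were at least as long, while the median interval was 265 kb (interquartile range 185 to 395 kb). Its 5′ boundary (chr11:96005001-96010000) was weak, at 0.437, lay 184 kb before Hoxb13 and held the start site of Igf2bp1, which encodes an RNA-binding protein. Its 3′ boundary (chr11:96735001-96740000) lay 367 kb past Hoxb1 in an intron of Skap1 with a strength of 1.85, and 96.0% of boundaries were at or under it. The start site nearest to it was that of Snx11, at 37.6 kb.

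The HoxB genes were all nearer to the weaker, 5′ boundary. Distances rose along the cluster from Hoxb13 at 184 kb, across the wide gap to its neighbour, and Hoxb9 at 261 kb to Hoxb4, a gene of blood stem cells, at 308 kb and Hoxb1 at 356 kb. The interval also held 7 other protein-coding start sites, those of Gip, Snf8, Ube2z, Atp5g1, Calcoco2, Ttll6 and Skap1. HoxB thus shared its interval with more non-Hox genes than any other cluster did. Beyond it, the 5′ side had boundaries of 0.995 at 329 kb, 0.708 at 529 kb, 1.26 at 664 kb and 1.4 at 934 kb. The 3′ side had 0.294 at 672 kb, in exons of Lrrc46 and Mrpl10, then 0.836 at 807 kb, in an exon of Kpnb1, and 0.389 at 962 kb, in an exon of Gpr179. The neighbouring intervals measured 145 kb on the 5′ side and 305 kb on the 3′ side.

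HoxC spans 116 kb (chr15:102921103-103036852, plus strand) and had the strongest pair of flanking boundaries. The 5′ boundary (chr15:102755001-102760000), 161 kb before Hoxc13, had a strength of 2.04, and 97.5% of boundaries were at or under it. Its nearest start site was that of Calcoco1, 32.8 kb away. The 3′ boundary (chr15:103175001-103180000), 138 kb past the Hoxc4 end, had 1.23, and 85.7% were at or under it. The weaker flank of the HoxC interval was thus 1.23, and 0.883% of all intervals had a weaker flank at least that strong. The weaker flank was 0.437 for HoxB, 0.212 for HoxA and 0.209 and 0.203 for the HoxD intervals, against a median of 0.343 over all intervals. Since the 5 intervals were looked at because they hold Hox genes, these shares describe their place and are no test.

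The HoxC interval was 420 kb long, and 22.5% of all intervals were at least as long. It held the 9 HoxC genes and 1 other start site, that of Smug1, a DNA repair gene 7.91 kb from the 3′ boundary. The cluster stood near the middle of it, with distances from 156 kb for Hoxc4 to 207 kb for Hoxc10 and for Hoxc5, whose annotated start lies beside that of Hoxc10. Hoxc8 and Hoxc9, which pattern spinal motor neurons, were 184 and 199 kb from the 3′ boundary. On the 5′ side there followed an interval of 220 kb and boundaries of 0.243 at 381 kb, in an exon of Atf7, 0.247 at 461 kb, 0.221 at 686 kb, 0.685 at 841 kb and 1.4 at 941 kb. The boundary of 0.221 overlapped exons of Rarg, a retinoic acid receptor gene, and of Itgb7. On the 3′ side there followed an interval of 175 kb, a boundary of 1.2 at 313 kb, in an exon of Itga5, and one of 0.772 at 773 kb, the last of the chromosome in the list.

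**Figure D3:**
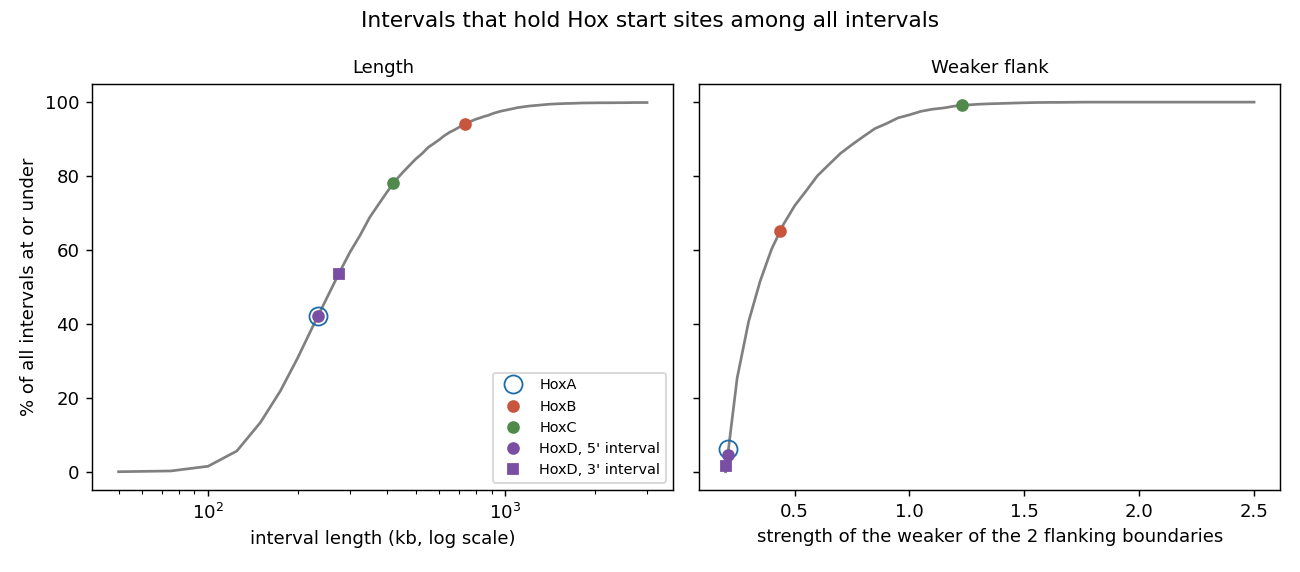
The 5 intervals that hold Hox start sites, placed on the cumulative share of all 7590 intervals by length (left, log scale) and by the strength of the weaker of the flanking boundaries (right). HoxB stands high by length (730 kb), HoxC stands highest by its weaker flank (1.23), and HoxA and HoxD lie near the bottom of the right panel.

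Around all 4 clusters, 35 boundaries lay inside or within 1 Mb, in like numbers for each cluster. There were 9 each for HoxA, HoxB and HoxC and 8 for HoxD. Of the 35, 20 (57.1%) were strong, against 52.9% of the list, and their median strength was 0.619. A protein-coding start site lay within 10 kb of 12 (34.3%), against 31.1% of all boundaries. These 12 were spread unevenly, with 5 around HoxB, 5 around HoxC, 2 around HoxD and 0 around HoxA. Inside the clusters themselves, 492 kb in all, the 1 boundary compares with 1.46 at the genome's density of 2.97 boundaries per Mb.

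CTCF, the protein that halts cohesin as it extrudes loops, was represented by its core consensus of 12 letters, some of which allow alternative bases. The genome sequence was searched for it on both strands. A match is a stretch of letters and not a measurement of binding. Within 10 kb of a match lay 17 of the 35 boundaries (48.6%), against 24.4% of all boundaries, a difference for which no test was made. Among the 9 boundaries inside or next to a cluster, however, 3 had one: both HoxC flanks and the 3′ flank of HoxD. The boundary at Hoxd10, both HoxA flanks and both HoxB flanks had none.

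Matches are shown with the 12 bases of the consensus in capitals and 12 bases of RefSeq sequence (GRCm38.p6) on each side. Shown are those at the 3 flanks and the only match inside a cluster. The HoxC 5′ match is at chr15:102753549-102753584, the HoxC 3′ match at chr15:103178352-103178387, the HoxD 3′ match at chr2:74964527-74964562 and the HoxB inner match at chr11:96265863-96265898. All 4 are on the minus strand and are printed 5′ to 3′ along it.
HoxC 5′ flank: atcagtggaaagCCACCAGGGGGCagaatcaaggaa
HoxC 3′ flank: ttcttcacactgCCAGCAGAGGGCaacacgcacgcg
HoxD 3′ flank: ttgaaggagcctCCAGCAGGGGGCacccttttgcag
HoxB, inside: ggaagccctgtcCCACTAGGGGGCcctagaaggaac
The HoxC 5′ match lay 1.44 kb outside the bin of strength 2.04, and the HoxC 3′ match lay in the bin of 1.23. The HoxD 3′ match lay 0.457 kb from the bin of 0.203, so a match stood at the weakest as well as at strong flanks. The HoxB match lay 5.58 kb from the Hoxb9 start site, between Hoxb13 and Hoxb9, and the nearest boundary was 256 kb away. Over the 492 kb of the clusters, the genome's density of 4.97 matches per Mb would give 2.45, and 1 was found. With 1 mismatch allowed the clusters held 34 against 41.4 at the genome's density, with 7 in HoxA, 16 in HoxB, 6 in HoxC and 5 in HoxD. At that setting the boundary at Hoxd10 had 1 match within 10 kb, and 89.1% of all boundaries had at least 1.

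The clusters were rich in G+C and poor in repeats. G+C made up 48.9% of HoxB, 49.0% of HoxC and 49.4% of HoxD, with HoxA slightly higher,, against 41.8% of the genome. Soft-masked repeats made up 13.4% of HoxA, 24.6% of HoxB, 15.9% of HoxC and 14.4% of HoxD, against 34.3% of the genome. The CpG ratio (observed over expected from base content) was 0.477, 0.349, 0.357 and 0.460 in the same order, against 0.191. The bin at Hoxd10 had 12.2% masked bases, and 7.1% of all boundary bins had as few. How mappability in repeats bears on the called boundaries was not tested.

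**Figure D4:**
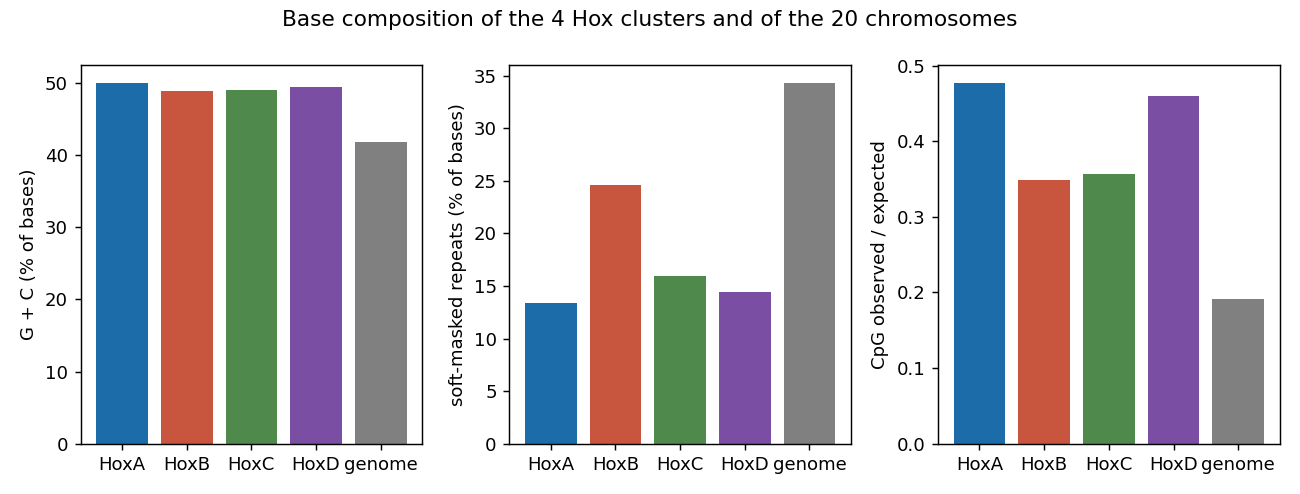
G+C content, soft-masked repeats and the observed over expected CpG ratio of the 4 cluster spans (coloured bars) and of the 20 chromosomes together (grey bar). Each cluster is above the genome in G+C and CpG ratio and below it in repeats, with HoxB the richest of them in repeats (24.6%).

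Hox intervals were also dense in genes, which their choice as holders of a gene cluster fixes in part. The HoxA interval had 55.3 protein-coding start sites per Mb, and 1.49% of all intervals were at least as dense. HoxB had 23.3, HoxC 23.8 and the HoxD intervals 21.3 and 25.5, against a median of 5.71 over all intervals. Within these intervals, repeats made up 21.4% for HoxA, 28.5% for HoxB, 20.6% for HoxC and 28.1% and 23.9% for HoxD, against a median of 30.7%.

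Genes that work with or regulate Hox genes lay at boundaries in 9 of 40 cases (22.5%), against 14.3% of all protein-coding genes. No test of this difference was made, and the gene lists were chosen with earlier results of these data known. Of 9 genes of the TALE homeodomain class, whose products bind DNA together with Hox proteins, Pbx3 started in a boundary bin (0.679) and Meis1 6.02 kb from one (0.601). Of 15 Polycomb genes, Rnf2, which encodes a ubiquitin ligase, started in a bin of strength 1.01, Jarid2 0.527 kb from one of 1.15 and Ring1 5.32 kb from one of 1.07. Of 6 genes for activators and histone demethylases, Kmt2b lay 1.27 kb from a boundary of 0.6 and Kdm6b, which removes the Polycomb mark, 8.68 kb from one of 0.734. Of 10 genes of retinoic acid signalling and axial patterning, Aldh1a2, which makes retinoic acid, started in a weak boundary bin (0.283). The farthest members were Pknox2 at 203 kb, Bmi1 at 112 kb, Kmt2a at 83.7 kb and Rarb at 414 kb.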

How the data were processed

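The 2 Hi-C libraries form 1 group. Per the labels' design text, the authors pooled their contact pairs, built 1 contact matrix and called boundaries on it. The build is GRCm38, per the submitters' processing notes. The sources used here do not name the caller, its window or its mask. The deposited list gives each 5 kb bin a strength, which is a score computed by the authors and was used only to describe and rank bins. The strong and weak classes split at 0.5.

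Start sites came from gene-level GENCODE M21 records, and sequences from RefSeq GRCm38.p6. A start site was at a boundary when in the bin or within 10 kb. Intervals ran from bin start to bin start. The 5′ side is that of group 13. Python 3.11.15, numpy 2.4.6, pandas 2.3.3 and matplotlib 3.10.9 were used. No statistical test was run. The members, the gene lists and the alternatives were chosen with earlier results of these data known. Named genes were all Hox genes, Evx1 and Evx2, genes overlapped by or nearest to the boundaries in and beside the clusters, and regulator genes at a boundary or farthest from one. Results for 2 genes are not reported here by name. Other neighbours were named after their values were seen.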

Additional observations from a re-analysis of the deposited data

How the results depend on the processing

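Of 23 alternative settings, 10 left the counts within 1.5 times of those reported or the value unmoved, and 13 moved them. Start sites in the bin alone gave 1 of 39 Hox genes and 3 of 40 partner or regulator genes, against 3.86% of all genes. A window of 25 kb gave 9 and 14, against 26.5%, and a window of 50 kb gave 12 Hox genes, against 45.3%. Spans widened by 50 kb held 2 boundaries, the second being the 5′ flank of HoxA. Of the 35 surrounding boundaries, 16 lay within 500 kb, 20 were strong and 10 had a strength of at least 1. The median length of the 5 Hox intervals, 275 kb, became 625 kb with strong boundaries alone, 1160 kb with strengths of at least 1 and 270 kb between inner bin edges. HoxC kept 420 kb in the first 2 of these settings, whereas HoxA went from 235 kb to 420 and 2580 kb and HoxB from 730 kb to 875 and 1210 kb. Allowing 1 mismatch gave 34 CTCF matches inside the clusters. The boundary at Hoxd10 stayed inside a cluster with strong boundaries alone and with strengths of at least 1. Any annotated transcript start gave 4 Hox genes within 10 kb, adding Hoxd11 at 7.68 kb, and RefSeq gene starts gave 3. The share over all genes was not computed under either of these rules, so neither count can be set against that of gene-level GENCODE starts. The RefSeq gene record of Hoxd10 begins 7.65 kb upstream of the GENCODE one, 5.73 kb outside the bin. Start sites also differed by 46.6 kb for Hoxc5, 16.2 kb for Hoxb3 and 10.0 kb for Hoxd4. No paired analysis was possible because both replicates were pooled before boundaries were called, and for the same reason no library could be left out.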

Other observations

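Hox clusters also carry microRNAs, short RNAs that repress messages through the seed, bases 2 to 8, and several of their known targets are Hox messages. The mature sequences (RefSeq, GRCm38.p6) are shown with the seed in capitals, since they fall into 2 seed groups that each span more than 1 cluster.
miR-10a-5p: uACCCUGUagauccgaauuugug
miR-10b-5p: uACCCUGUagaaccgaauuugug
miR-196a-5p: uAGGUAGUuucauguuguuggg
miR-196b-5p: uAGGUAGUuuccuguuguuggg
Mir10b, in HoxD near Hoxd4, started 31.1 kb from the boundary at Hoxd10 and shared the 3′ interval with Hoxd1 to Hoxd9. Mir10a, its relative in HoxB with the same seed, started 307 kb from a boundary. The miR-196 genes likewise stood at unlike distances, with Mir196b in HoxA at 49.8 kb, Mir196a-2 in HoxC at 202 kb and Mir196a-1 in HoxB at 255 kb. Mir615 in HoxC started 160 kb from a boundary. No microRNA gene named here started within 10 kb of one, against 14.3% of all protein-coding genes. The microRNA genes are few and their distances are set by the same boundaries as those of the Hox genes, so this is no result about microRNA genes.

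Long noncoding genes of the HoxA, HoxC and HoxD clusters started 17.2 to 188 kb from a boundary. Hottip, which lies past Hoxa13, started 17.2 kb from the 5′ boundary of HoxA and on the Hox side of it. Hoxa11os started 35.6 kb, Halr1 52.9 kb and Hotairm1 107 kb from a boundary, all in the HoxA interval. Hotair, in HoxC, started 188 kb away, and in HoxD Hoxd3os1 started 21.1 kb and Haglr 67.9 kb from the boundary at Hoxd10. These genes and the microRNA genes were chosen with their values known, and no test was made.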
